A study of Homo sapiens with 4 samples.

Results

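The 14q32 imprinted domain was examined for CpG methylation around DLK1 and MEG3 in H9 cells, a widely used human embryonic stem cell line. Its members were all cytosines with at least 5 reads in each of 4 libraries at hg19 chromosome 14, 101185001 to 101330000. They numbered 175 of the 907719 cytosines of the series that met the same coverage minimum. Of these, 57 lay in the DLK1 interval (101190001 to 101203000), 8 in the intergenic control region (101274001 to 101280000) and 44 in the MEG3 promoter interval (101289001 to 101295000). The remaining 66 lay elsewhere in the domain. The intervals were fixed by position and not by methylation. The study compared cells with and without B3GALT5, a galactosyltransferase of glycosphingolipid synthesis, in the primed and the naive state of pluripotency. The libraries were B3GALT5-/- (KO) naive cells from 2iLAF medium, wild-type (WT) naive cells from 5iLAF medium, KO primed cells in basal medium and WT primed cells in basal medium. With 1 library in each group there was no replicate error, and every comparison is one of libraries, not of conditions. In the naive pair the genotype and the medium differed together and cannot be told apart.

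Genomic imprinting is the expression of a gene from the allele of 1 parent. At 14q32 DLK1, a transmembrane relative of the Notch ligands, is expressed from the paternal allele, and MEG3, a long noncoding RNA, from the maternal allele. The intergenic control region is methylated on the paternal and unmethylated on the maternal allele from the germ line on, and the MEG3 promoter takes up the same pattern after fertilization. A cell population that keeps this imprint therefore has intermediate levels at both elements. High methylation of both alleles, with a silent MEG3, is known from cultured human pluripotent cells. Conversion to the naive state in 5iLAF-type media is known to lower methylation across the genome, and imprinted regions are known to lose theirs in such cultures. RNA and single alleles were not analysed here.

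The sequence at the RefSeq start of MEG3 is shown because the interval was chosen for this promoter. RefSeq's table for GRCh38.p14 holds 3 overlapping windows for MEG3, and the one with the lowest coordinate is printed, chr14:100825858-100826157 on the plus strand, 5′ to 3′ with CpGs in capitals. No DLK1 window was matched.
MEG3 promoter: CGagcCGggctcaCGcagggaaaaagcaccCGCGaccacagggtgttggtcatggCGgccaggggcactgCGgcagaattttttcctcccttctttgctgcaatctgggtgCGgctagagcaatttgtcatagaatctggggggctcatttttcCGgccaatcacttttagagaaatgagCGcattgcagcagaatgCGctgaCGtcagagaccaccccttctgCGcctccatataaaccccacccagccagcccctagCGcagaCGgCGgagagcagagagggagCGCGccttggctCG
The window has 19 CpGs, and 42.9% of the 35116 promoter windows of the table have at least as many (their median is 14). It holds TGACGTCA, the palindromic cAMP response element, once, at base 201 counted from its 5′ end. This motif is in 1.85% of all promoter windows. It also holds TGCCGC, the motif of ZFP57, a zinc finger protein that keeps methylation at imprinted regions, once, as its reverse complement at base 70 (both strands searched; in 16.7% of windows). These matches are descriptions of the letters. The window is of another build than the methylation tables, and only the spacing of its CpGs could be compared with them. The spacing is that of the 19 successive minus-strand cytosines listed from 101292196 to 101292494. None of these had at least 5 reads in all 4 libraries. The interval means given below therefore include no CpG of this sequence.

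The assay was bisulfite sequencing after capture of selected CpGs. Coverage summed over listed CpG cytosines was 40697882 (KO naive), 23916547 (WT naive), 28450230 (KO primed) and 24570785 (WT primed). A read counts at each cytosine it covers. Cytosines without any methylated read are missing from the tables. This raises levels near 0 and levels of cytosines with few reads, and has little effect on intermediate levels at higher coverage. In the domain the median coverage per cytosine was 19 reads in KO naive, 12 in WT naive, 12 in KO primed and 10 in WT primed cells, against 21, 13, 14 and 13 over the autosomes in the same libraries. Over the 876973 autosomal cytosines the mean level was 59.3% in KO naive, 58.1% in WT naive, 81.7% in KO primed and 80.7% in WT primed cells. Each cytosine counted equally in a mean, and the SDs given are spreads over cytosines, not over replicates. Neighbouring cytosines can lie on the same reads and are not independent.

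**Figure D1:**
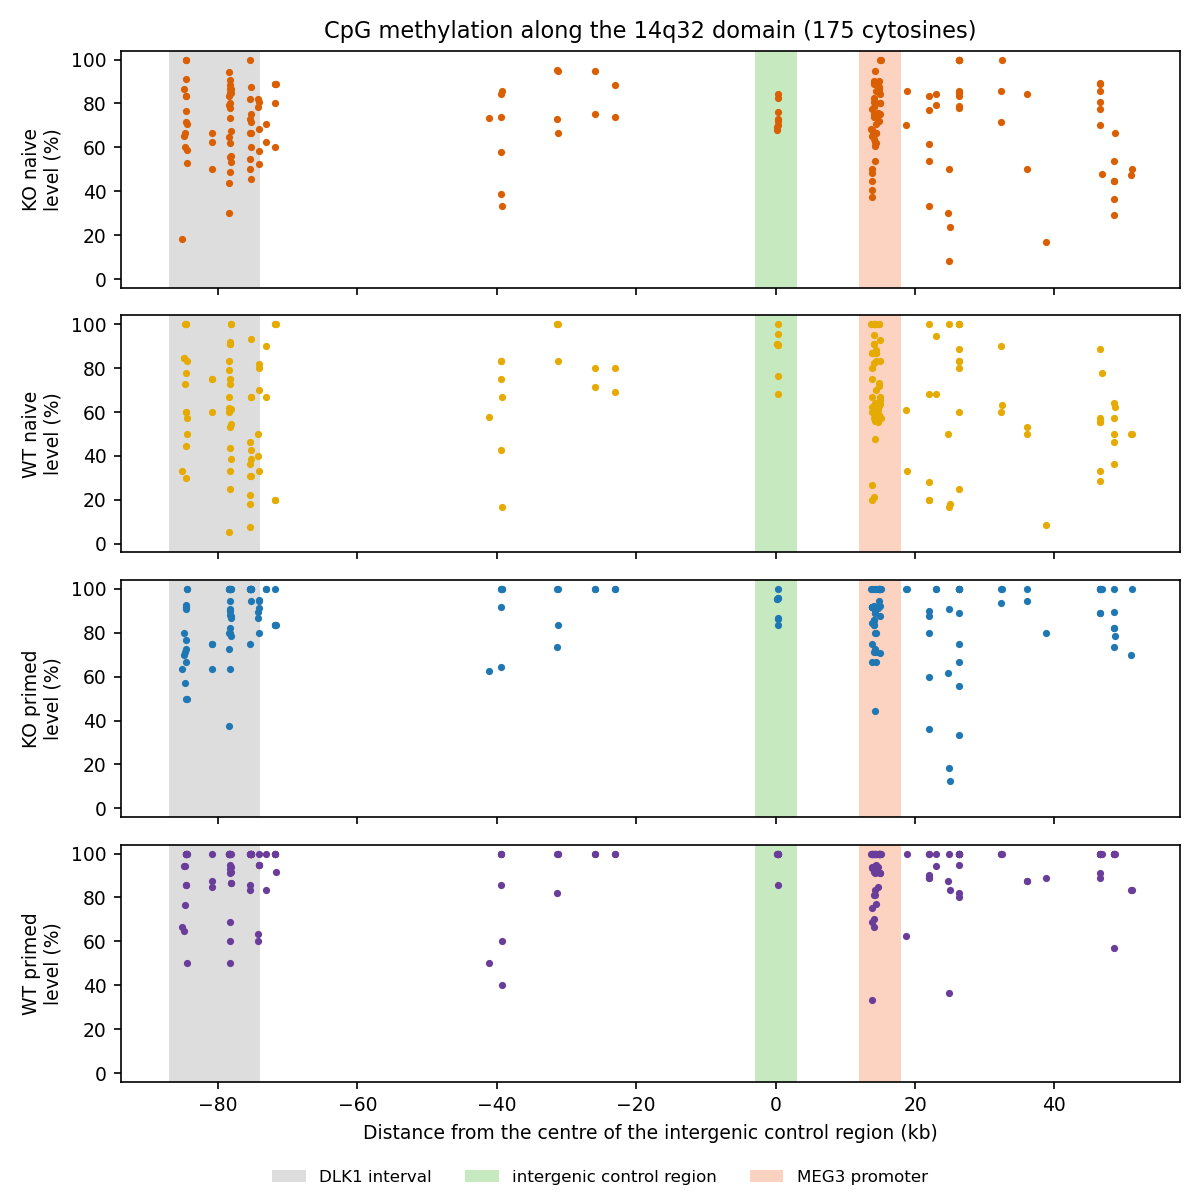
Methylation level (%) of all members in each library, from top to bottom KO naive, WT naive, KO primed and WT primed, against the distance in kb from the centre of the intergenic control region; each point is 1 cytosine and the shaded bands are the 3 intervals. The primed libraries lie mostly at 80% or above, and the naive libraries spread further downward.

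The intergenic control region was highly methylated in both primed libraries and in WT naive cells, and lower in KO naive cells. Its mean level was 74.3% ± 6.12 in KO naive, 87.8% ± 10.4 in WT naive, 92.3% ± 5.96 in KO primed and 98.2% ± 5.05 in WT primed cells (SD over 8 cytosines). In KO naive cells the 8 levels ran from 68% to 84.2% with a median of 72.4%. In WT naive cells they ran from 68.2% to 100% with a median of 90.7%. The levels of the naive libraries thus overlapped, with the KO median the lower. In KO primed cells they ran from 83.3% to 100% (median 95.3%) and in WT primed cells from 85.7% to 100% (median 100%). No primed level was between 30 and 70%, the band taken here as intermediate. In that band lay 3 of 8 cytosines in KO naive and 1 of 8 in WT naive cells, against 47.04% of all autosomal cytosines in KO naive and 44.1% in WT naive cells.

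The 8 cytosines lie on the minus strand between 101277267 and 101277374, so a read can cover several of them. The WT primed library had 6 to 7 reads at each, against 13 to 24 in KO primed, 12 to 22 in WT naive and 19 to 26 in KO naive cells. Of the cytosines with the most reads in the least covered library, the one at 101277267 was methylated on 18 of 26 reads in KO naive, 20 of 22 in WT naive, 20 of 21 in KO primed and 7 of 7 in WT primed cells. The Wilson 95% interval of its level was 50.01 to 83.5% in KO naive, 72.2 to 97.5% in WT naive, 77.3 to 99.2% in KO primed and 64.6 to 100% in WT primed cells. These intervals cover counting error only. The cytosine at 101277269 gave 17 of 25, 20 of 22, 21 of 22 and 7 of 7 reads in the same libraries.

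The control region was lower in the naive than in the primed library of each genotype. The mean difference was -17.97 points ± 7.53 for KO naive against KO primed (SD over cytosines), with 8 of 8 cytosines lower. It was -10.4 points ± 7.35 for WT naive against WT primed, with 7 of 8 lower and 1 equal. By the rule of size used here (a mean difference of at least 25 points, with at least 80% of cytosines moving that way), neither passed. In 1 kb tiles of the whole series with at least 5 cytosines, 36.2% passed it downward and 0.162% upward in KO cells, and 36.8% downward and 0.536% upward in WT cells. No single cytosine of the region was called in a two-sided Fisher's exact test of its reads with Benjamini-Hochberg adjustment (adjusted p under 0.05 and at least 25 points). At an unadjusted p under 0.05, 3 of 8 (37.5%) were lower in KO naive cells and 0 in WT naive cells, against 31.7% and 28.9% of autosomal cytosines. Of 49397 autosomal tiles, 4.39% had a mean level in WT naive cells at or above that of the control region, and 24.1% did in KO naive cells.

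The MEG3 promoter interval was also highly methylated in primed cells and stayed above the autosomal mean in naive cells. Its mean level was 73.8% ± 15.05 in KO naive, 74.01% ± 21.2 in WT naive, 88.2% ± 12.1 in KO primed and 91.8% ± 13.2 in WT primed cells (SD over 44 cytosines). The levels ran from 37.5% to 100% (median 75%) in KO naive and from 20% to 100% (median 74.2%) in WT naive cells, a wide overlap. They ran from 44.4% to 100% (median 91.7%) in KO primed and from 33.3% to 100% (median 100%) in WT primed cells. The ranges of all 4 libraries overlapped, and the medians of the primed libraries were the higher ones. At 80% or above were 18 cytosines in KO naive, 21 in WT naive, 36 in KO primed and 38 in WT primed cells. These are 40.9%, 47.7%, 81.8% and 86.4%, against 23.6%, 27.1%, 69.3% and 67.2% of autosomal cytosines. Of 49397 autosomal tiles, 47.7% had a mean level in KO primed cells at or above that of the interval, and 30.1% did in WT primed cells. Intermediate levels were found at 16 and 17 cytosines in KO and WT naive cells, and at 3 and 4 cytosines in KO and WT primed cells. These are 36.4%, 38.6%, 6.82% and 9.09%, against 47.04%, 44.1%, 17.02% and 18.6% of autosomal cytosines.

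The measured cytosines of this interval lay between 101290748 and 101292054, and its 2 well-covered 1 kb tiles differed. In the tile from 101290001 (10 cytosines) the mean level was 56.8% ± 14.01 in KO naive, 66.4% ± 25.8 in WT naive, 88.5% ± 10.5 in KO primed and 86.4% ± 21.8 in WT primed cells. In the tile from 101291001 (32 cytosines) it was 77.5% ± 10.3 in KO naive, 76.3% ± 19.5 in WT naive, 87.4% ± 12.7 in KO primed and 93.03% ± 9.38 in WT primed cells. The naive-minus-primed difference in KO cells was thus -31.7 points in the first tile and -9.89 points in the second. In WT cells it was -20 and -16.7 points. The difference between the tiles was not tested.

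Over the whole MEG3 promoter interval the mean difference was -14.4 points ± 16.3 for KO naive against KO primed, with 35 of 44 cytosines lower. It was -17.8 points ± 21.7 for WT naive against WT primed, with 31 of 44 lower. Neither passed the rule of size. Fisher's exact test called 1 cytosine lower in each comparison and none higher. Like every call in the domain, these were lost when reads were scaled by the disagreement between the strands of a CpG. Nearly all calls of the series were lost with them. At the cytosines called here, scaling left too few reads for a call at any methylation level. Their loss is therefore no result about their levels. Over all 907719 cytosines the calls lower fell from 164995 to 2096 in KO and from 147016 to 1329 in WT cells. The call in WT cells was at 101290840, with 3 of 15 methylated reads in WT naive and 15 of 16 in WT primed cells (Fisher's exact test, adjusted p = 0.00103). The call in KO cells was at 101290849, with 9 of 24 methylated reads in KO naive and 11 of 12 in KO primed cells (Fisher's exact test, adjusted p = 0.0248). These cytosines are 9 bases apart, and neither passed Fisher's exact test in the other genotype (adjusted p = 0.102 in KO cells at 101290840 and 0.838 in WT cells at 101290849). Over all cytosines the test called 18.2% lower and 0.242% higher in KO naive against KO primed, and 16.2% lower and 0.442% higher in WT naive against WT primed cells. The cytosine at 101291719, among those with the most reads, was methylated on 31 of 35 reads in KO naive, 14 of 23 in WT naive, 21 of 23 in KO primed and 15 of 16 in WT primed cells. The cytosine at 101291792 gave 28 of 32, 22 of 30, 17 of 18 and 13 of 13 reads in the same libraries.

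**Figure D2:**
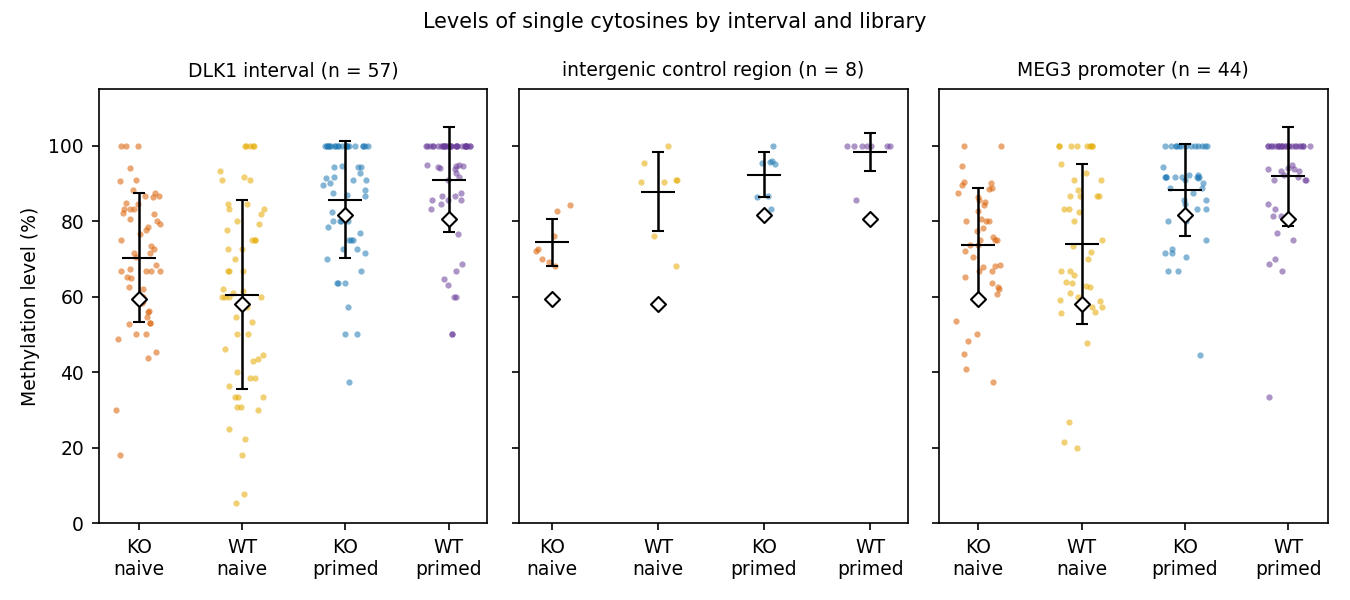
Methylation levels (%) of single cytosines (points) in each interval, by library from left to right KO naive, WT naive, KO primed and WT primed; the bar is the mean with its SD over cytosines and the open diamond the mean of all autosomal cytosines. All 4 means of each interval lie above the autosomal mean of their library, by the largest distance in the control region of WT naive cells (87.8% against 58.1%). The means of the rest of the domain, not drawn here, also lie above it.

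The DLK1 interval had the largest mean difference between the WT libraries, although with at least 10 reads it was -18.003 points, against -19.98 points in the MEG3 promoter interval. Its mean level was 70.3% ± 17.1 in KO naive, 60.6% ± 25.05 in WT naive, 85.7% ± 15.5 in KO primed and 90.9% ± 13.9 in WT primed cells (SD over 57 cytosines). The levels ran from 18.2% to 100% (median 71.4%) in KO naive and from 5.26% to 100% (median 60.9%) in WT naive cells. They ran from 37.5% to 100% (median 90.9%) in KO primed and from 50% to 100% (median 100%) in WT primed cells. The ranges overlapped here too, with the lowest median in WT naive cells. Intermediate levels were found at 26 cytosines in KO naive, 30 in WT naive, 9 in KO primed and 8 in WT primed cells. These are 45.6%, 52.6%, 15.8% and 14.04% of the interval, against 47.04%, 44.1%, 17.02% and 18.6% of autosomal cytosines.

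WT naive cells stood below WT primed cells by a mean difference of -30.4 points ± 27.1, with 48 of 57 cytosines lower, and this passed the rule of size. KO naive cells stood below KO primed cells by less (-15.4 points ± 19.5), with 44 of 57 lower, which did not pass. Fisher's exact test called 5 cytosines (8.77%) lower in KO naive and 7 (12.3%) in WT naive cells against their primed libraries, and none higher, against 18.2% and 16.2% of all cytosines called lower. Without a test, 33.3% of the cytosines were at least 25 points lower in KO and 54.4% in WT cells, against 43.4% and 44.8% of all cytosines. The widest WT difference among tiles of the interval was in a block of 12 cytosines in the tile from 101201001, and whether the interval passed turned on it. There the mean level was 69.3% ± 15.8 in KO naive, 41.7% ± 23.9 in WT naive, 97.5% ± 7.25 in KO primed and 97.4% ± 6.05 in WT primed cells. The WT primed library had 5 to 7 reads at these cytosines. Without this tile, which was singled out after its values were seen, the WT difference was -23.6 points and no longer passed. With at least 10 reads in every library 20 cytosines remained, none of that tile, and the WT difference was -18.003 points.

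The other tiles of the DLK1 interval had smaller differences between the WT libraries. In the tile from 101192001 (14 cytosines) the level was 76.1% ± 15.001 in KO naive, 71.8% ± 22.1 in WT naive, 76.5% ± 17.1 in KO primed and 89.4% ± 15.7 in WT primed cells, so that the KO libraries differed by -0.303 points. The tile from 101196001 (3 cytosines) stood at 59.7% ± 8.67 in KO naive, 70% ± 8.66 in WT naive, 71.2% ± 6.56 in KO primed and 90.7% ± 8.18 in WT primed cells. This was the tile of the interval, among those with at least 3 cytosines, in which KO naive cells were below WT naive cells. In the tile from 101198001 (21 cytosines) it was 71.03% ± 17.7 in KO naive, 64.2% ± 25.3 in WT naive, 87.3% ± 15.5 in KO primed and 91.2% ± 14.3 in WT primed cells. In the tile from 101202001 (6 cytosines) it was 70.04% ± 12.4 in KO naive, 59.2% ± 20.9 in WT naive, 89.5% ± 5.51 in KO primed and 84.6% ± 18.01 in WT primed cells.

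Among single cytosines of the DLK1 interval, the largest called WT drop was at 101198518 on the plus strand. It was methylated on 1 of 19 reads in WT naive and 6 of 6 in WT primed cells (adjusted p = 0.00105, Fisher's exact test). The same cytosine had 7 of 16 methylated reads in KO naive and 3 of 8 in KO primed cells. The largest called KO drop was at 101201664, with 5 of 11 methylated reads in KO naive and 19 of 19 in KO primed cells (Fisher's exact test, adjusted p = 0.00838). The WT libraries had 4 of 13 reads in naive and 6 of 6 in primed cells there (Fisher's exact test, adjusted p = 0.0586). The cytosine at 101198728, with the most reads in its least covered library, gave 24 of 43 methylated reads in KO naive, 4 of 16 in WT naive, 14 of 17 in KO primed and 11 of 16 in WT primed cells. The one at 101202748 gave 29 of 37, 7 of 14, 26 of 29 and 9 of 15 reads in the same libraries. Neither was called in any comparison.

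**Figure D3:**
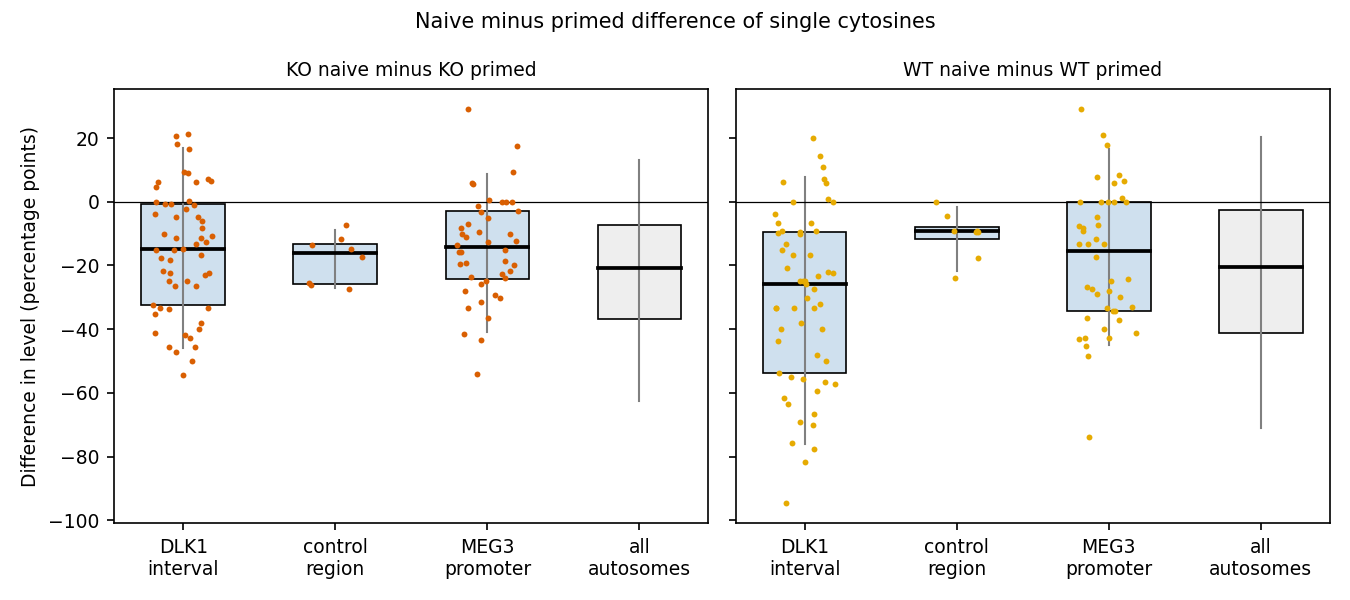
Difference in level of single cytosines (percentage points), KO naive minus KO primed on the left and WT naive minus WT primed on the right, for the 3 intervals and all autosomes; boxes span the 25th to 75th percentile with the median as a line, grey lines the 5th to 95th percentile, and points are the cytosines of the intervals. The control region lies in a narrow band below 0, with medians of -16.03 points in KO and -9.31 points in WT cells, while the DLK1 interval spreads widely in WT cells with a median of -25.7 points.

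Set beside the autosomes, the naive libraries stood below the primed ones in the domain by about as much in WT cells and by less in KO cells, and this contrast was not tested. Its cytosines differed by a mean of -15.6 points between KO naive and KO primed, against -22.4 points over all autosomal cytosines. Between WT naive and WT primed the mean was -25.2 points, against -22.6 points. At least 25 points lower were 31.4% of the domain's cytosines in KO cells and 47.4% in WT cells, against 43.4% and 44.8% of all cytosines. At least 25 points higher were 2.86% in KO and 1.14% in WT cells, against 1.94% and 3.94% of all cytosines. Fisher's exact test called 12 of 175 cytosines (6.86%) lower in KO and 16 of 175 (9.14%) in WT cells, none higher, against 18.2% and 16.2% of all cytosines called lower. The median coverage of the domain was also below that of the autosomes, and its part in these shares was not tested. Naive levels were the lower ones in both genotypes at 116 cytosines (66.3%, against 66.9% of autosomal cytosines). All 4 libraries were at 80% or above at 25 cytosines (14.3%, against 10.1%), of which 2 lay in the control region, 5 in the MEG3 promoter interval and 6 in the DLK1 interval.

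Outside the 3 intervals the remaining 66 cytosines averaged 69.99% ± 22.8 in KO naive, 64.3% ± 27.3 in WT naive, 86.2% ± 20.1 in KO primed and 91.6% ± 14.7 in WT primed cells. Among tiles with at least 3 cytosines, KO naive levels were furthest below KO primed levels in the tile from 101325001 (6 cytosines; -38.6 points in KO and -40.1 points in WT cells). The level there was 45.8% ± 13.2 in KO naive, 52.7% ± 10.6 in WT naive, 84.4% ± 9.23 in KO primed and 92.9% ± 17.5 in WT primed cells. The tile from 101245001 (4 cytosines), between DLK1 and the control region, kept high levels, at 82.5% ± 14.9 in KO naive, 95.8% ± 8.33 in WT naive, 89.3% ± 13.02 in KO primed and 95.5% ± 9.09 in WT primed cells. The cytosines at 101315776 and, in the DLK1 interval, at 101201650 were called lower in both genotypes. The share of all cytosines called lower in both was not computed. The one at 101315776 had 3 of 18 methylated reads in KO naive and 12 of 15 in KO primed cells (adjusted p = 0.00533), and 2 of 23 in WT naive and 8 of 9 in WT primed cells (adjusted p = 0.000971, Fisher's exact tests). The one at 101201650 had 6 of 12 methylated reads in KO naive and 22 of 22 in KO primed cells (adjusted p = 0.00765), and 1 of 13 in WT naive and 5 of 6 in WT primed cells (adjusted p = 0.0236, Fisher's exact tests). Both were chosen after their values were seen.

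Between KO and WT cells of the same state the intervals differed by less than 25 points on average. In primed cells the KO library was lower by a mean of -5.90 points in the control region, -3.66 points in the MEG3 promoter interval and -5.20 points in the DLK1 interval. All autosomal cytosines together were 0.999 points higher in KO. The rule of size was passed by none of the intervals, and by 0.8% (lower in KO) and 1.54% (higher in KO) of all tiles. No cytosine of the domain was called by Fisher's exact test between the primed libraries, where 0.103% of all cytosines were called lower and 0.216% higher. At an unadjusted p under 0.05, 8 cytosines of the domain (4.57%) were lower and 4 (2.29%) higher, against 3.17% and 4.604% of autosomal cytosines. The cytosines that were at least 25 points lower in KO primed cells made up 13.1% of the domain and 7.7% of all cytosines, and those at least 25 points higher made up 4.57% of the domain and 9.68% of all cytosines.

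In naive cells the control region was lower in the KO library, by a mean of -13.5 points ± 10.1 with 7 of 8 cytosines lower. With each library's own cytosines this difference was -21.2 points. The DLK1 interval was higher in the KO library by 9.75 points ± 25.5, with 33 of 57 cytosines higher. The MEG3 promoter interval differed by -0.221 points ± 23.3, with 22 of 44 cytosines lower and 22 higher. The autosomal mean was 1.21 points higher in KO. None of the intervals passed the rule of size, which 2.21% of all tiles passed as lower and 3.33% as higher in KO. At least 25 points higher in KO were 21.7% of the domain's cytosines and 14.5% of all cytosines, and at least 25 points lower were 9.14% and 11.9%. Fisher's exact test called 1 cytosine of the domain, at 101192417 in the DLK1 interval, higher in KO naive cells, with 15 of 15 methylated reads in KO and 3 of 10 in WT naive cells (adjusted p = 0.0429). Over all cytosines 0.391% were called higher and 0.218% lower. The KO naive library was also the most deeply sequenced, and the part of depth in these differences was not tested.

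Many cytosines of the domain did not reach 5 reads in all libraries, and their values are given apart. In the MEG3 promoter interval 170 cytosines were listed in at least 1 library, and 126 of them were left out by the coverage minimum. After the last measured cytosine, 87 more were listed from 101292063 to 101294316. Coverage was pooled over the listed cytosines there, so that a read counts at each cytosine it covers. The level was 77.5% of 573 such counts in KO naive and 68.6% of 223 in WT naive cells. It was 98.2% of 342 in KO primed and 89.4% of 218 in WT primed cells. The Wilson 95% intervals were 73.9 to 80.7%, 62.2 to 74.3%, 96.2 to 99.2% and 84.7 to 92.9% in the same order. They take the counts as independent and are therefore too narrow. These pooled levels were also high in both primed libraries and lower in both naive libraries, but many of the cytosines had few reads. At least 5 reads were present at 46 of 78 listed cytosines in KO naive and 15 of 47 in WT naive cells. They were present at 29 of 67 in KO primed and 14 of 69 in WT primed cells. A cytosine listed with 1 read always stands at 100%, since those without a methylated read are missing. This raises the pooled levels, by an amount that was not tested and may differ between libraries.

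Not being listed means either no read or no methylated read. In the MEG3 promoter interval 18 cytosines were unlisted in KO naive, 57 in WT naive, 25 in KO primed and 23 in WT primed cells. Of the 57, 24 were listed in all of the other libraries. In the DLK1 interval 17, 29, 23 and 29 cytosines were unlisted in the same order of libraries, and in the control region none. Where the nearest listed neighbours of the same strand within 25 bp had at least 5 reads, an unlisted cytosine may have had no methylated read. This was so at 0 unlisted cytosines of the MEG3 promoter interval in any library, and at 3, 3, 2 and 0 of the DLK1 interval (137 listed in at least 1 library). Over the whole series it was so at 3.9%, 3.9%, 3.2% and 3.2% of cytosines listed in at least 1 library. Whether the gaps of the WT naive library at the MEG3 promoter are unmethylated or uncovered sequence cannot be told apart.

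**Figure D4:**
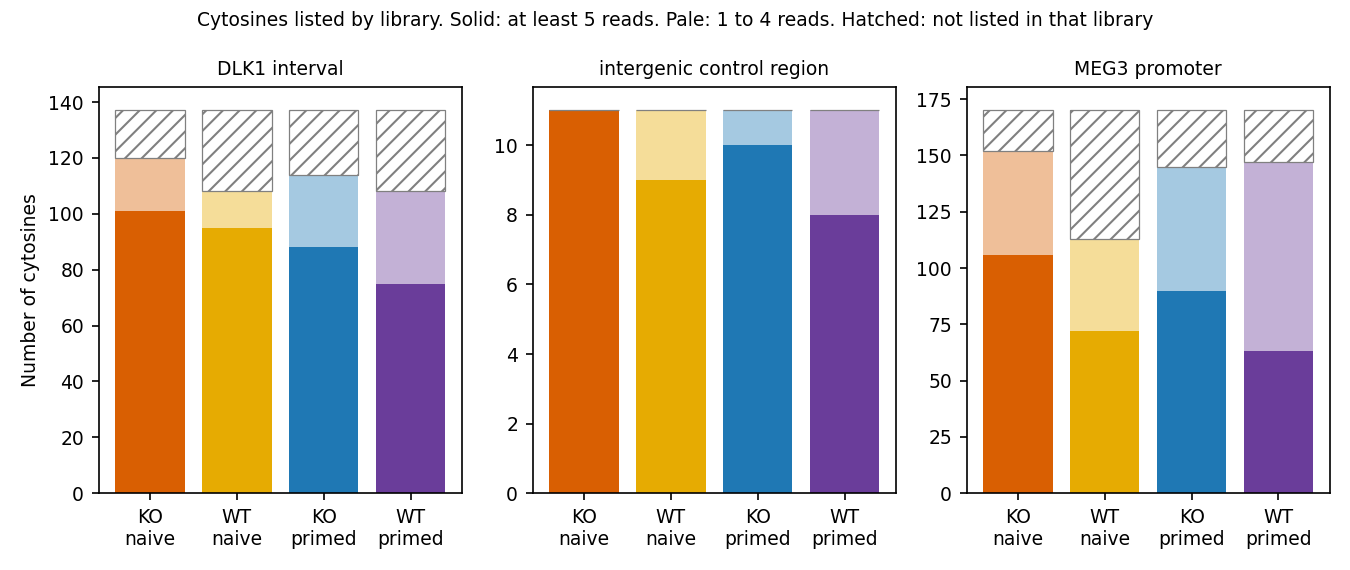
Number of cytosines of each interval listed with at least 5 reads (solid), listed with 1 to 4 reads (pale) and not listed (hatched), by library from left to right KO naive, WT naive, KO primed and WT primed, out of those listed in at least 1 library. In the MEG3 promoter interval the WT naive library lacks 57 of 170 cytosines, against 18 in the KO naive library. Over the whole series these libraries lack 28.5% and 17.2% of such cytosines. The control region has all 11 listed in every library.

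The 3 cytosines of the control region left out by the coverage minimum lay at its measured ends, from 101277219 to 101277425. Pooled, with a read counted at each cytosine it covers, they gave 25 methylated of 45 counts in KO naive and 25 of 26 in WT naive cells. They gave 25 of 29 in KO primed and 5 of 6 in WT primed cells. With all of its cytosines that had at least 5 reads in a library, the control region averaged 67.3% in KO naive (11 cytosines), 88.6% in WT naive (9), 91.9% in KO primed (10) and 98.2% in WT primed cells (8).

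The levels of the control region and of the MEG3 promoter interval over the 4 libraries were also found elsewhere in the genome. Likeness was measured as the largest difference in mean level over the 4 libraries, among 16058 autosomal 1 kb tiles outside the domain with at least 10 cytosines. Closest to the control region were tiles on chromosome 6 from 74024001 (within 1.31 points), chromosome 1 from 47078001 (1.54 points) and chromosome 19 from 1999001 (2.20 points). Closest to the MEG3 promoter interval were tiles on chromosome 17 from 80557001 (1.18 points), chromosome 3 from 59037001 (1.30 points) and chromosome 11 from 73664001 (1.37 points). Within 5 points in all 4 libraries were 158 tiles for the control region and 491 for the MEG3 promoter interval.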

How the data were processed

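Bisulfite libraries of H9 genomic DNA were made with a methylation capture kit, with a stated conversion of 99%, per the labels' protocols. Coordinates follow hg19, that is GRCh37 (per the submitters' processing notes). No source used here names an aligner, a caller or a step that removes duplicates. Per the file headers, the authors deposited, per cytosine and strand, raw read counts (total, context and methylated coverage) and the methylation level as a fraction, which equalled methylated over context coverage. No row had 0 methylated reads.

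Levels were computed as percent of context coverage with strands kept apart and chromosome Y left out. Fisher's exact tests (tested on simulated data) were adjusted over all 907719 cytosines. The simulated reads had binomial variance only, so that check does not cover the larger disagreement between strands in these libraries. They take reads as independent molecules, and compare libraries. With 1 library per group there is no test between conditions. The intervals, lists and thresholds were chosen with earlier results of these data known. Named were, per interval, the 2 cytosines with the most reads in their least covered library and the largest called naive-against-primed decrease and increase, besides those stated to be chosen afterwards. Alternatives were coverage minimums of 10 and 20 reads, read weighting, each library's own cytosines, merged strands, a limit of 100 reads, filling in, 50 points, and reads scaled by the disagreement between strands.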

Additional observations from a re-analysis of the deposited data

Results flagged for a closer look

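Effects of opposite sign in groups of 1 library each were taken for a closer look; none of these differences between effects was tested. The KO-minus-WT difference was 4.65 points in naive and -4.95 points in primed cells over the domain, an offset of 9.60 points. In the DLK1 interval it was 9.75 points in naive and -5.20 points in primed cells (offset 14.9), and outside the intervals 5.70 and -5.47 points (offset 11.2).

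Among 1 kb tiles of the DLK1 interval the same offset, naive minus primed, was 17.3 points from 101192001 and 10.8 points from 101198001. In the MEG3 promoter interval it was -11.7 points from 101290001 and 6.81 points from 101291001. Elsewhere in the domain it was 25 points from 101205001, 27.8 points from 101298001, 22.7 points from 101303001, 16.7 points from 101309001 and 20.8 points from 101323001. These tiles hold 3 to 32 cytosines.

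The naive-minus-primed difference went in opposite directions in the tile from 101245001 (-6.79 points in KO and 0.379 points in WT cells, offset -7.17) and in the tile from 101303001 (9.09 points in KO and -13.6 points in WT cells, offset 22.7).

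At single cytosines, 101198518 moved by 6.25 points in KO and -94.7 points in WT cells between naive and primed, an offset of 100.99 points; merged with its other strand the KO difference was -16.7 points. The KO-minus-WT offsets were 100.99 points at the same cytosine, 30.1 points at 101291719, 19.7 points at 101291792 and 32.1 points at 101290840. The lowest coverage at these cytosines was 6, 16, 13 and 12 reads. Both offsets at 101198518 are the same contrast and not separate results. The cytosines at 101198518 and 101290840 were named for the largest called WT drop of their interval. A large offset at them goes with that choice.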

How the results depend on the processing

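The naive-minus-primed differences of all 3 intervals stayed below 0 in both genotypes under every alternative that gave a value. Their range over the alternatives was -31.4 to -18.003 points in WT and -17.1 to -12.04 points in KO cells for the DLK1 interval. For the MEG3 promoter interval it was -19.98 to -16.998 points in WT and -19.3 to -14.3 points in KO cells, and for the control region -10.997 to -9.65 points in WT and -24.5 to -17.97 points in KO cells. The DLK1 drop in WT cells passed the rule of size except with at least 10 reads (-18.003 points) and without the tile from 101201001 (-23.6 points). KO minus WT changed sign for the DLK1 interval in primed cells with at least 10 reads (1.43 points). It changed sign for the MEG3 promoter interval with each library's own cytosines (2.21 points in primed and 3.29 points in naive cells). Of the 175 cytosines of the domain, 12 were called lower for KO naive against KO primed, and 7 at 50 points and 0 with scaled reads. For WT naive against WT primed 16 were called lower, and 0 with scaled reads. With at least 10 reads 48 cytosines remained, and 5 were called lower in each of these comparisons. Calls over all cytosines were counted only at the main setting and with scaled reads. The counts at the other settings therefore have no share of all cytosines beside them. Over all 907719 cytosines, scaled reads left 2096 called lower in KO and 1329 in WT cells. At an unadjusted p under 0.05 with scaled reads (Fisher's exact test), 0 of the 175 cytosines of the domain were lower in KO and 2 in WT cells. Of all 907719 cytosines these numbered 45799 and 35457. The median coverage of the domain was below that of the autosomes, and its part in these counts was not tested. For KO against WT primed 1 lower call appeared with at least 10 reads. The 1 call higher in KO naive against WT naive became 0 with at least 10 reads, 0 with scaled reads and 2 with merged strands. Scaling divided reads by 2.34 to 3.797. This left so few reads that most calls of the domain could not have been kept at any methylation level. No cytosine of the control region had 10 reads in all libraries and none of the domain had 20, so these settings gave no value there. The causes of these shifts were not tested. No paired analysis was possible because each group held 1 library and the labels number no replicates.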

Other observations

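Both strands of a CpG were measured at 9 sites of the domain, 4 in the DLK1 interval and 5 in the tile from 101303001. In the DLK1 interval the strands of the CpG at 101198609 had levels of 30% (plus) and 79.3% (minus) in KO naive cells, 66.7% and 83.3% in WT naive cells, 72.7% and 80% in KO primed cells and 100% on both in WT primed cells. In the tile from 101303001 the CpG at 101303305 stood at 100% (plus) and 33.3% (minus) in KO primed cells and at 100% on both strands in WT primed cells. Over the whole series the disagreement between strands was 2.34 times the binomial variance in KO naive, 2.998 in WT naive, 3.797 in KO primed and 3.70 in WT primed cells, from CpGs at 20 to 80%.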
